A study of Homo sapiens with 6 samples.

Results

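The BMP and activin branch of the TGF-β superfamily was described in OVCAR5 cells, an established human ovarian cancer cell line, through 10 genes taken by symbol from the count table of 60649 gene rows. All 10 symbols were found. They code for the BMP ligands BMP2, BMP4 and BMP7, the activin subunits INHBA and INHBB, the secreted antagonists CHRDL1, NOG and FST, and the target genes ID1 and ID3. The list was drawn up with the counts of the METTL3 comparison already known, and the genes are treated as selected on the METTL3 against vector differences, CHRDL1 in particular. Those differences are therefore given as a description. Where members that passed a test across all genes are counted, the count stands beside the share of all genes that passed and is not evidence about the members.

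BMPs and activins are secreted dimers that bind pairs of type I and type II receptor kinases at the cell surface. BMP receptors phosphorylate SMAD1, SMAD5 and SMAD9, activin receptors phosphorylate SMAD2 and SMAD3, and both groups of SMADs enter the nucleus with SMAD4. Chordin-like proteins and noggin bind BMPs outside the cell, follistatin binds activins with high affinity, and the ID genes are among the direct targets of BMP receptor SMADs. The BMP and activin pathways are active in the normal ovary, where they take part in follicle growth, and in ovarian tumors.

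The cells had been transduced with lentivirus carrying METTL3, the catalytic subunit of the m6A RNA methyltransferase, or with the empty vector, and were selected with puromycin as stable lines. RNA-seq counts of 3 METTL3-overexpressing and 3 vector control libraries were available, and the labels name no cisplatin treatment for them. One label calls the controls parental whereas another gives them empty-vector lentivirus, and they are called vector here. Neither the clonality of the lines nor the origin of the replicates in separate cultures was given in the sources used here, so the spread between libraries may be technical.

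Total counts ranged from 96633925 to 125463386 per library, and levels are given as CPM, counts relative to the library total scaled by TMM factors, which correct for differences in composition. METTL3 mRNA reached 152, 165 and 175 CPM in the METTL3 libraries against 80.6, 68.6 and 71.6 CPM in the controls, and every METTL3 library was above every vector library (two-sided p = 0.1 by exact permutation, which is the lowest value possible with 3 libraries a group). In the fit across all genes METTL3 differed by 1.16 on the log2 scale (standard error 0.117), with an adjusted p of 0.0720 (edgeR, Benjamini-Hochberg). All 5 epithelial markers, EPCAM, KRT8, KRT18, KRT19 and CDH1, averaged at least 1 CPM, with a summed level from 6912 to 7906 CPM with METTL3 and from 5593 to 8834 CPM with the vector. CDH1 was at 439, 358 and 346 CPM with METTL3 and at 201, 184 and 189 CPM with the vector, and the groups overlapped for the other epithelial markers. Of 5 ovarian markers, PAX8 and MUC16 averaged at least 1 CPM, while WT1, SOX17 and EMX2 stayed at or below 0.235 CPM in every library. The sum of the 5 ovarian markers was 12.3 to 61.2 CPM with METTL3 and 8.6 to 13.8 CPM with the vector. Its upper end came from MUC16 in METTL3 replicate 1, at 49.4 CPM against 6.17 and 3.45 CPM in METTL3 replicates 2 and 3. The summed levels of the markers of other cell types overlapped between the groups, at 17.5 to 20.05 and 9.15 to 20.3 CPM for 6 fibroblast genes, 8.02 to 22.2 and 5.21 to 8.2 CPM for 5 endothelial genes, and 7.45 to 11.5 and 7.19 to 10.8 CPM for 5 leukocyte genes. Of these, 2 fibroblast genes (COL1A1 and PDGFRB), 1 endothelial gene (PECAM1) and 1 leukocyte gene (CD14) averaged at least 1 CPM. Each sum thus rests mainly on these genes. In both groups replicate 1 stood away from replicates 2 and 3, so the results are also given for the latter alone.

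Compared per length, ID1 had the highest level of the 10 genes, with a mean of 253.8 CPM per kb of exon over the 6 libraries (range 224.0 to 331), followed by ID3 with a mean of 33.6 CPM per kb (29.1 to 42.2). BMP4 was the most abundant ligand at 10.5 CPM per kb (9.36 to 15.2), and its range did not meet that of ID3 above it or INHBA below it. INHBA (6.63 CPM per kb) and NOG (4.96 CPM per kb) overlapped in range, as did each neighbouring pair among NOG, CHRDL1 (1.61 CPM per kb), INHBB (1.53 CPM per kb), BMP2 (1.44 CPM per kb) and FST (1.40 CPM per kb). BMP7, which codes for a BMP with roles in kidney and skeletal development, lay far below the others at 0.0069 CPM per kb. It had 4, 4 and 2 counts in METTL3 replicates 1, 2 and 3 and 2, 8 and 5 counts in vector replicates 1, 2 and 3. At this depth no difference of BMP7 could be read, and it was the single listed gene that did not pass edgeR's filter on low counts, leaving 9.

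**Figure D1:**
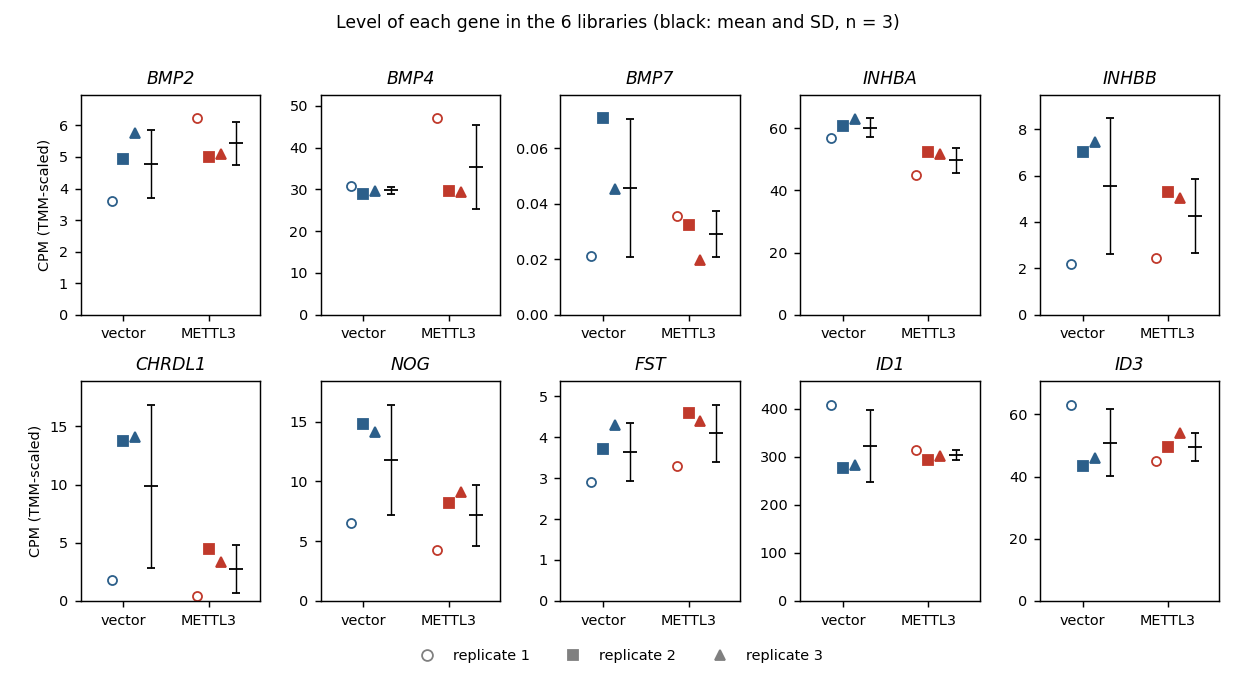
Level of each of the 10 genes in CPM (TMM-scaled, linear axes from 0) in the vector and METTL3 libraries, with 1 point per library, open circles for replicate 1, and the mean and SD of each group (n = 3) in black. CHRDL1, NOG and INHBB were low in both replicate 1 libraries, and for INHBA all METTL3 libraries lay below all vector libraries.

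Among the ligands, the lowest levels of INHBA in the vector group lay above the highest in the METTL3 group. INHBA codes for the βA subunit, which forms activin A as a homodimer (ENSG00000122641.11, GRCh38 chromosome 7, 41667168 to 41705834, reverse strand). INHBA measured 45.0, 52.5 and 51.6 CPM in replicates 1, 2 and 3 of the METTL3 group against 56.8, 60.6 and 62.9 CPM in those of the vector group. The means were 49.7 ± 4.05 and 60.1 ± 3.05 CPM (SD, n = 3 each), and the fitted log2 fold change was -0.28 (standard error 0.111). The difference had the same sign within each replicate number, at -0.34, -0.21 and -0.29 on the log2 scale. INHBA-AS1 exons face 2.99% of the exonic bases of INHBA on the other strand, and the strand setting of the counting was not given in the sources used here.

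INHBB, the βB subunit of activin B (ENSG00000163083.6, chromosome 2, 120346136 to 120351803, forward strand), was at 2.44, 5.3 and 5.03 CPM with METTL3 and at 2.17, 7.01 and 7.44 CPM with the vector. Its groups overlapped because vector replicate 1 was low, and METTL3 replicate 1 was low as well. The log2 fold change was -0.38 (standard error 0.459) on all 6 libraries and -0.48 (standard error 0.103) in replicates 2 and 3, whereas within replicate 1 the difference was 0.17. With 1 library left out it ranged from -0.76 without vector replicate 1 to -0.090 without METTL3 replicate 1.

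BMP4 (ENSG00000125378.16, chromosome 14, 53949736 to 53958761, reverse strand) and BMP2 (ENSG00000125845.7, chromosome 20, 6767686 to 6780246, forward strand) are close relatives that signal through the same type I receptors. BMP4 was at 47.0, 29.6 and 29.5 CPM with METTL3 and at 30.7, 29.0 and 29.6 CPM with the vector. METTL3 replicate 1 thus stood above the other BMP4 values, which lay from 29.0 to 30.7 CPM. Its log2 fold change of 0.25 (standard error 0.188) became 0.01 (standard error 0.0619) in replicates 2 and 3. The unnamed gene ENSG00000287156 has exons on the other strand that face 16.3% of the exonic bases of BMP4. BMP2 was at 6.22, 5 and 5.08 CPM with METTL3 and at 3.62, 4.95 and 5.76 CPM with the vector, so its groups overlapped and its extremes were the replicate 1 libraries. On all libraries the log2 fold change of BMP2 was 0.19 (standard error 0.209) and -0.09 (standard error 0.116) in replicates 2 and 3.

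Of the 9 tested genes, the antagonists CHRDL1 and NOG had the largest differences. CHRDL1 and NOG were lower with METTL3 within every replicate number, as was the ligand gene INHBA, and FST was not. In bulk RNA, fewer cells expressing a gene and less RNA per cell cannot be told apart.

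CHRDL1 codes for chordin-like 1, a secreted protein with cysteine-rich domains that binds BMPs such as BMP4 (ENSG00000101938.15, chromosome X, 110673856 to 110795819, reverse strand). CHRDL1 measured 0.452, 4.49 and 3.36 CPM in replicates 1, 2 and 3 of the METTL3 group, from 51, 557 and 339 counts. In the vector libraries it was at 1.78, 13.8 and 14.1 CPM, from 169, 1554 and 1556 counts. Within the replicate numbers CHRDL1 was 3.94-fold, 3.06-fold and 4.19-fold lower with METTL3, but the groups overlapped, since vector replicate 1 lay below METTL3 replicates 2 and 3. The means were 2.77 ± 2.08 and 9.87 ± 7.01 CPM (SD, n = 3 each), and the log2 fold change was -1.83 (standard error 0.864). With the replicate number as a block it was -1.87 (standard error 0.160), and in replicates 2 and 3 it was -1.82 (standard error 0.121). The size was nearly the same and the errors were smaller. Neither of these fits counts the shared departure of replicate 1 as spread, and the latter rests on 2 libraries per group. The replicate 1 libraries were 8.69-fold below the mean of replicates 2 and 3 with METTL3 and 7.81-fold below it with the vector, so CHRDL1 differed more between replicate 1 and the others than between the groups.

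NOG codes for noggin, which covers the receptor-binding surfaces of BMPs (ENSG00000183691.6, chromosome 17, 56593699 to 56595611, forward strand). It was at 4.25, 8.16 and 9.08 CPM with METTL3 and at 6.52, 14.8 and 14.1 CPM with the vector. NOG was 1.53-fold, 1.82-fold and 1.55-fold lower with METTL3 within replicates 1, 2 and 3, and the groups overlapped through vector replicate 1. The log2 fold change was -0.72 (standard error 0.362) on all libraries, -0.70 (standard error 0.128) with the replicate number as a block and -0.75 (standard error 0.0869) in replicates 2 and 3.

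FST codes for follistatin (ENSG00000134363.12, chromosome 5, 53480626 to 53487134, forward strand), and it was at 3.29, 4.6 and 4.38 CPM with METTL3 and at 2.9, 3.72 and 4.29 CPM with the vector. The groups overlapped, and the differences within replicates were 0.18, 0.31 and 0.03 on the log2 scale. The fitted log2 fold change of FST was 0.17 (standard error 0.215), opposite in sign to those of CHRDL1 and NOG.

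**Figure D2:**
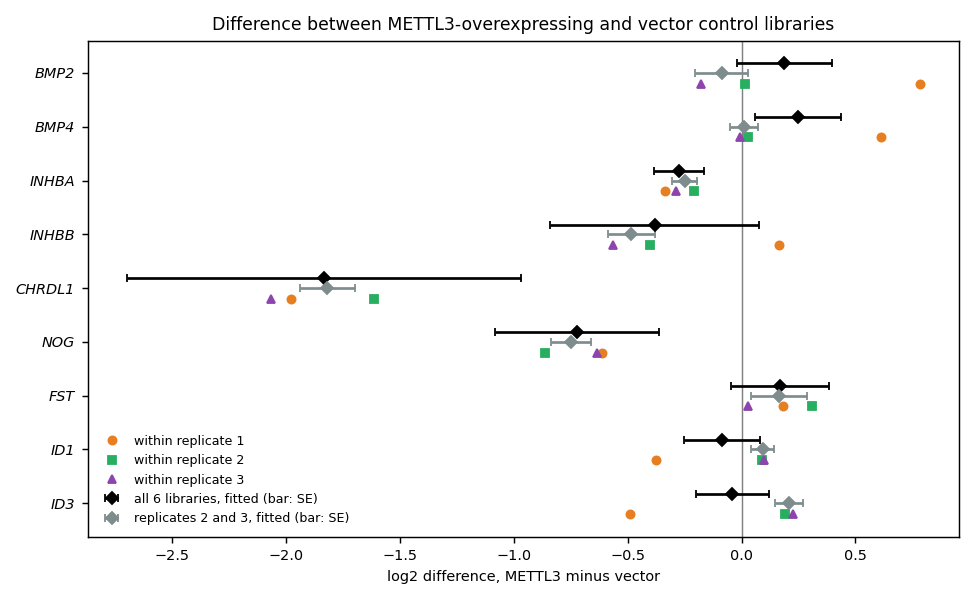
Log2 difference between METTL3 and vector libraries (x axis) for the 9 tested genes, fitted on all 6 libraries (black, bar: SE), fitted on replicates 2 and 3 (grey, bar: SE) and within each replicate number (coloured). CHRDL1, NOG and INHBA lay below 0 within all 3 replicate numbers, which held for 19.9% of all genes tested. Replicate 1 lay apart for BMP2, BMP4, INHBB, ID1 and ID3.

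METTL3 methylates adenosines in a short sequence context of which GGACT, in DNA letters, is a frequent form, so the antagonist transcripts were searched for these letters on their own strand. The longest GENCODE transcript of CHRDL1 held 3 matches in 3860 bases (0.777 per kb), that of NOG 1 match in 1913 bases (0.523 per kb) and that of FST 2 matches in 2538 bases (0.788 per kb). Of the 14873 protein-coding genes tested, 93.8% held at least 1 match in their longest transcript, with a median of 0.938 per kb, so the antagonist transcripts had no high density of these letters. The 25 bases around each match are shown because CHRDL1 and NOG had the largest differences between the groups, with the match in capitals. In CHRDL1 the first site lies in coding exon 10 and the others in the 3′ UTR (exon 12), and the NOG site lies in the 3′ UTR of its single exon. In FST the first lies in coding exon 3 and the second in the 3′ UTR (exon 6). Regions are those of the longest transcript, and a site may be coding in another transcript of the same gene.
CHRDL1 coding, chrX:110681482-110681506, reverse strand: gtccacgtttGGACTattcgaaagg
CHRDL1 3′ UTR, chrX:110676164-110676188, reverse strand: agctgcagctGGACTgcaggcttat
CHRDL1 3′ UTR, chrX:110675373-110675397, reverse strand: tgtacctatgGGACTtccagaaaga
NOG 3′ UTR, chr17:56595373-56595397, forward strand: cttttgtagaGGACTttttaaaagc
FST coding, chr5:53483510-53483534, forward strand: gtgagaacgtGGACTgtggacctgg
FST 3′ UTR, chr5:53485984-53486008, forward strand: atgaagaccaGGACTacagctttcc
Among the other genes BMP2 held 7 matches, BMP4 and BMP7 6 each, INHBB and ID3 3 each and INHBA 2. ID1 held 0 matches in its 1233 bases. A match is a description of the letters and not a methylated site, and methylation was not measured in these libraries.

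The target genes ID1 and ID3, which code for helix-loop-helix proteins that lack a DNA-binding region and hold back other transcription factors, both had their highest level in vector replicate 1. ID1 (ENSG00000125968.9, chromosome 20, 31605283 to 31606515, forward strand) was at 315, 294 and 302 CPM with METTL3 and at 409, 276 and 282 CPM with the vector. The 5 other libraries thus lay between 276 and 315 CPM. ID3 (ENSG00000117318.9, chromosome 1, 23557926 to 23559501, reverse strand) was at 44.9, 49.65 and 53.9 CPM with METTL3 and at 63.1, 43.5 and 46.1 CPM with the vector. The groups of both genes overlapped, with log2 fold changes of -0.09 (standard error 0.166) for ID1 and -0.04 (standard error 0.160) for ID3. In replicates 2 and 3 alone both turned positive, at 0.09 (standard error 0.0507) for ID1 and 0.21 (standard error 0.0621) for ID3. Within replicate 1 they were -0.38 and -0.49.

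Because ID1 and ID3 both had their highest level in vector replicate 1, the 250 bases before their RefSeq starts (GRCh38.p14) are shown, 5′ to 3′ on the strand of the gene. Capitals mark CAGAC, the core of the SMAD-binding element, searched on both strands (GTCTG when read from the other one), and TATAAA, searched on the gene's strand.
ID1, chr20:31605039-31605288, forward strand: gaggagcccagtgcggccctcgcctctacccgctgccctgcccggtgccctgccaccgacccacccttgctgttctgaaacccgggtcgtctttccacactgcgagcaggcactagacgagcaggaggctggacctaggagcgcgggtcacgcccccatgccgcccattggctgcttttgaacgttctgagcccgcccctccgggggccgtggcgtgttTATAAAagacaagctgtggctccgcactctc
ID3, chr1:23559502-23559751, reverse strand: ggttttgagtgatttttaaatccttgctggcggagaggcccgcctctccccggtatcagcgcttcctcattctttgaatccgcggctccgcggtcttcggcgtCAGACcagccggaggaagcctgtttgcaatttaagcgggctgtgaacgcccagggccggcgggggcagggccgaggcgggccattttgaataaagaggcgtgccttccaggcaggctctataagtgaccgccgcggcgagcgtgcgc
The ID1 window held TATAAA, which begins 31 bases before the start site, and lacked the SMAD letters. The ID3 window held the SMAD letters once, beginning 147 bases before its start, and lacked the exact letters TATAAA. Near variants of TATAAA were not searched for. Bases farther upstream than these 250 were not searched either, so SMAD letters there would be missed. Of 35116 such promoter windows, 38.0% held the SMAD letters on either strand and 6.8% held TATAAA on the gene's strand. GGCGCC, the palindromic letters of a GC-rich BMP SMAD element, was in neither window and in 16.4% of all windows. Besides ID1 and ID3, windows were found for BMP4, INHBA, INHBB, CHRDL1 and FST, and GGCGCC was in that of INHBB and in 1 of 3 windows of BMP4. Windows of BMP4 also held the SMAD letters, beginning 181 or 46 bases before the start. Those of INHBA, INHBB, CHRDL1 and FST lacked them, and the INHBA window held TATAAA. BMP2, BMP7 and NOG were not matched.

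Replicate 1 departed from the other libraries in a pattern that differed between the genes. CHRDL1, NOG and INHBB were at least 2-fold lower in replicate 1 than in the mean of replicates 2 and 3 in both groups, which held for 1.2% of the 22038 genes tested. For NOG the ratios were 2.03-fold with METTL3 and 2.22-fold with the vector, and for INHBB they were 2.12-fold and 3.33-fold. FST was lower by 0.45 and 0.47 on the log2 scale and INHBA by 0.21 and 0.12. BMP2 went in opposite directions, 0.30 with METTL3 and -0.57 with the vector, as did ID3, at -0.20 and 0.49. BMP4 was 0.67 higher in METTL3 replicate 1 and 0.07 higher in vector replicate 1, and ID1 was 0.08 and 0.55 higher. What sets replicate 1 apart was not tested.

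**Figure D3:**
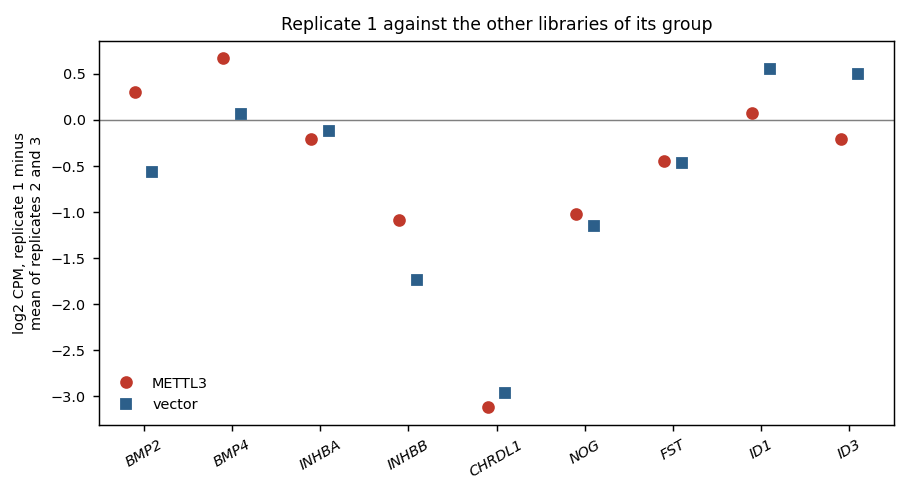
Log2 CPM of replicate 1 minus that of the mean of replicates 2 and 3 (y axis) for the 9 tested genes, in the METTL3 group (circles) and the vector group (squares). CHRDL1 was lowest in both groups, at -3.12 and -2.97, and ID1 and ID3 were raised in the vector group, at 0.55 and 0.49.

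Over all genes, 0.0% of the 22038 tested passed an adjusted p-value of 0.05 in edgeR's quasi-likelihood test on the 6 libraries, and 0 of the 9 tested members did. Before adjustment 8.3% of all genes had a p-value below 0.05, as did 1 of the 9, INHBA. DESeq2 called 1.63% of the 17338 genes it gave an adjusted p-value and 0 of the 9. With no filter on low counts edgeR called 1.3% of 43096 genes (0.782% higher and 0.517% lower) and 2 of the 10 members, CHRDL1 and NOG, both lower. Leaving out vector replicate 1 gave 1.62% of 22627 genes and 0 of the 9. All METTL3 libraries were below all vector libraries in CPM for 8.93% of all genes and again for INHBA alone among the 9, and above them for 8.47% of all genes and 0 of the 9. METTL3 was lower within each of the 3 replicate numbers for 19.9% of all genes and for 3 of the 9, CHRDL1, NOG and INHBA, and higher in all 3 for 19.5% and for 1, FST. The 9 genes had a median log2 fold change of -0.09 against -0.02 for all genes. In replicates 2 and 3 of each group edgeR called 15.2% of 22046 genes, and among the 9 it called CHRDL1, NOG, INHBA and INHBB lower and ID3 higher. These calls rest on 2 libraries per group. All of these tests use the contrast that the list was made on, so nothing is read from the members' counts.

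The other genes of the pathway, 91 in lists that name no member, included 65 that were tested. Some genes, such as SMAD6 and BAMBI, stand in more than 1 list and count in each. On all 6 libraries 35 of them were higher and 30 lower, the median log2 fold change was 0.02, and 0 passed edgeR's test at an adjusted p-value of 0.05. DESeq2 also called 0 of them. Before adjustment 3 had a p-value below 0.05, named after their values were seen, the ligand BMP5 (log2 fold change 0.96, standard error 0.317), the activin-binding FSTL3 (-0.33, standard error 0.124) and the follistatin-like FSTL5 (-1.48, standard error 0.470).

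Of 25 other ligands, 12 were tested and 8 of these had a positive log2 fold change (median 0.12). In replicates 2 and 3, 13 were tested with a median of -0.097, and edgeR called 0 higher and 4 lower. Over all genes it called 6.66% higher and 8.59% lower in these libraries. The most abundant per length were GDF15, a stress-induced member of the superfamily, AMH, the anti-Müllerian hormone, and BMP8B. GDF15 was at 56.8, 29.0 and 25.3 CPM with METTL3 and at 16.0, 33.1 and 32.2 CPM with the vector, and its extremes were the replicate 1 libraries. The fitted log2 fold change was 0.45 (standard error 0.357), with 0.05 (standard error 0.347) for AMH and 0.25 (standard error 0.165) for BMP8B. The value of GDF15 was 0.017 without METTL3 replicate 1, and in replicates 2 and 3 it was lower with METTL3 (-0.27, adjusted p = 0.0220 in edgeR's test). Log2 fold changes in replicates 2 and 3 were -0.097 for AMH and 0.017 for BMP8B.

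Of 18 receptors and co-receptors, 15 were tested and their median log2 fold change was 0.02. NEO1, the receptor of the repulsive guidance molecules that act as BMP co-receptors, averaged 136.2 ± 18.4 CPM (SD, n = 3) in the METTL3 group and 113 ± 21.4 CPM (SD, n = 3) in the controls. BMPR2, a type II BMP receptor, was at 107 ± 14.4 and 94.9 ± 17.6 CPM (SD, n = 3 each). In replicates 2 and 3 the log2 fold changes were 0.011 for NEO1 and -0.032 for BMPR2. ENG, the co-receptor endoglin, was at 22.8, 58.9 and 56.6 CPM with METTL3 and at 24.5, 92.7 and 88.6 CPM with the vector. ENG was thus low in replicate 1 of both groups, like CHRDL1 and NOG, with a log2 fold change of -0.57 (standard error 0.501) that did not pass edgeR's test (adjusted p = 0.746).

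All 13 SMADs and SMAD regulators were tested, and their log2 fold changes spanned the narrow range from -0.12 to 0.26. SMAD3, an activin and TGF-β receptor SMAD, was the most abundant per length (log2 fold change 0.14, standard error 0.188). SMAD5, a BMP receptor SMAD, had a log2 fold change of 0.01 (standard error 0.117), and SMURF2, a ubiquitin ligase that acts on SMADs and receptors, had one of 0.15 (standard error 0.118).

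Of 18 genes listed as other antagonists, 12 were tested, and 9 of these had a negative log2 fold change (median -0.09). The list takes in follistatin-like genes, whose action on BMPs or activins was not tested here. CRIM1, a membrane protein that binds BMPs, had the highest level per length in that list, at 95.9 CPM per kb, above each of the 3 listed antagonists, and TWSG1 and NBL1 followed at 35.6 and 32.4 CPM per kb. Their log2 fold changes were -0.04 (standard error 0.321) for CRIM1, 0.04 (standard error 0.121) for TWSG1 and -0.03 (standard error 0.147) for NBL1. Among 7 processing proteases, 6 were tested, and FURIN, HTRA1 and BMP1, of which FURIN cleaves ligand precursors and BMP1 cleaves chordin, had log2 fold changes of 0.16 (standard error 0.228), 0.03 (standard error 0.244) and 0.23 (standard error 0.145). FURIN was lower with METTL3 in replicates 2 and 3 (-0.23, adjusted p = 0.0225 in edgeR's test), where HTRA1 was at -0.032, and the median of the protease list went from 0.083 to -0.22.

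Of 14 other target genes, 11 were tested (median log2 fold change -0.08), with 5 higher and 6 lower. ID2, the most abundant of them, was at 70.8, 50.1 and 52.8 CPM with METTL3 and at 123.6, 54.2 and 62.8 CPM with the vector, so that vector replicate 1 was its highest library, as for ID1 and ID3. The log2 fold change was -0.47 (standard error 0.298) for ID2, -0.43 (standard error 0.367) for MSX1, a homeobox gene induced by BMPs, and 0.32 (standard error 0.167) for PMEPA1, a feedback inhibitor of the superfamily. Single libraries set much of these values, as ID2 was at -0.015 without vector replicate 1, and without METTL3 replicate 1 MSX1 was at -0.096 and PMEPA1 at 0.15.

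In replicates 2 and 3, edgeR called 21 of 67 pathway genes that are not members, 3 higher and 18 lower, against 6.66% higher and 8.59% lower over all genes. The 3 that rose were SMAD6, an inhibitory SMAD (log2 fold change 0.31, adjusted p = 0.00342 in edgeR's test), BMPER, a BMP-binding protein (0.72, adjusted p = 0.0111 in edgeR's test), and PMEPA1 (0.20, adjusted p = 0.0208 in edgeR's test). Among the 18 that fell were 5 genes of the other antagonists list, FSTL5 (-1.92), CHRD (-1.22), FSTL4 (-0.61), FSTL3 (-0.46) and CRIM1 (-0.23). The co-receptor ENG fell as well (-0.65, adjusted p = 2.6e-06 in edgeR's test). BMPER, which rose, stands in the same list. SMAD6, BMPER, CHRD and FSTL4 were also named after their values were seen. In these libraries the list medians were -0.23 for the other antagonists, -0.22 for the proteases, -0.097 for the other ligands, -0.093 for the other targets, -0.088 for the receptors and 0.031 for the SMADs, beside -0.0033 over all genes.

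**Figure D4:**
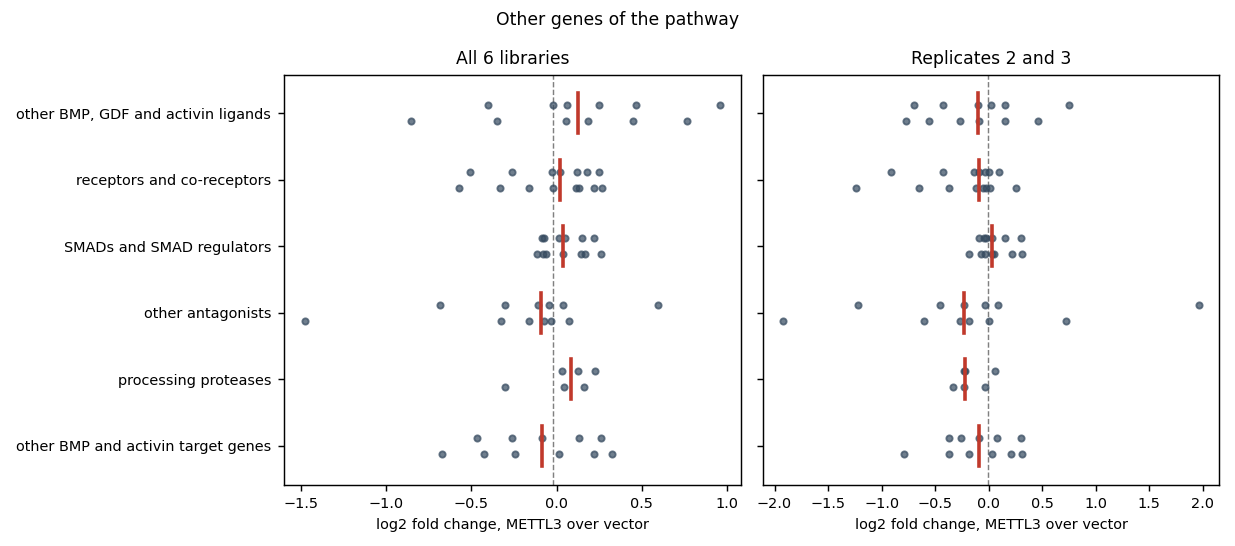
Log2 fold change of METTL3 over vector (x axis) for the tested genes of each pathway list (points) with the list's median (red bar) and the median of all genes tested (dashed line), on all 6 libraries (left) and on replicates 2 and 3 (right). The medians of all lists lay between -0.09 and 0.12 on all libraries and between -0.23 and 0.03 in replicates 2 and 3.

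The genes whose log2 CPM followed that of CHRDL1 most closely over the 6 libraries, among 14683 with a mean of at least 1 CPM, were CCDC50 (Pearson's r = 0.9988), MSN (r = 0.9980), which codes for the membrane-cytoskeleton linker moesin, and HOXC-AS2 (r = 0.9973). MSN was at 127, 245 and 227 CPM with METTL3 and at 184, 337 and 321 CPM with the vector, so it shared with CHRDL1 both the low replicate 1 and the lower METTL3 level within each replicate number. These correlations are a description over 6 points that share 2 groups and the replicate 1 departure, and were chosen as the highest of many.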

How the data were processed

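RNA-seq counts of 3 METTL3-overexpressing and 3 vector control OVCAR5 libraries were analysed. The authors aligned reads to hg38 with HISAT2 and counted them per gene with Subread (the submitters' processing notes also name fastp and featureCounts), and the deposited values are raw counts. Versions, annotation release and strand setting were not given in the sources used here. Library kit and read type differ between the sources: TruSeq stranded with paired ends in the labels, NEBNext with single ends in the methods. Of the counts from 1 to 20, 68.9% were even, and the counts over 2 were tried as an alternative. 

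Identifiers were matched without version to GENCODE release 44 (GRCh38), which named 60463 of 60649 rows. In R 4.3.3, edgeR 4.0.16 (filterByExpr, TMM, robust glmQLFit, glmQLFTest, Benjamini-Hochberg over 22038 genes, threshold 0.05) compared the groups, and standard errors were derived from the F statistic. DESeq2 1.42.0, the authors' own tool, served as an alternative. Code was tested on simulated counts. Levels per length used the union of exons. The members and lists were chosen with earlier results of these data known. Genes named were the 10 members, METTL3, the 3 most abundant per length in each pathway list, the 3 most like CHRDL1, and others marked as named after their values were seen. Libraries with the same number deviated together from the means of their groups (r = 0.33, 0.12 and 0.17 for replicates 1, 2 and 3, above the minimum of 0.1), which meets the rule set for pairing. The groups were compared without a replicate term, and the fit with the replicate number as a block was an alternative. The pairing comes from the values, and METTL3 replicate 2 correlated more with vector replicate 3 (0.21). METTL3 replicate 3 with vector replicate 2 also passed the minimum (0.13), so the rule does not settle how replicates 2 and 3 pair. Alternatives were other size factors, DESeq2, other filters, the replicate block, each library left out, replicates 2 and 3 alone, and the counts over 2.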

Additional observations from a re-analysis of the deposited data

How the results depend on the processing

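On all 6 libraries edgeR called 0 genes, 0 members and 0 other pathway genes. DESeq2 called 283 genes and 0 of either list. The authors, who used DESeq2 on the same groups, reported more genes and listed NOG as lower with METTL3. Why the results differ was not tested. When no filter was set, edgeR called 560 genes, 2 members (CHRDL1 and NOG, lower) and 2 pathway genes (ENG and FSTL5, lower). In replicates 2 and 3 it called 3362 genes, 5 members and 21 pathway genes. When each library was left out in turn, the counts ranged from 0 to 367 genes, from 0 to 0 members and from 0 to 2 pathway genes. The 367 genes and both pathway genes (GDF11 and FSTL5, lower) came from the fit without vector control replicate 1. With the replicate block edgeR called 0 genes, and the log2 fold change of CHRDL1 was -1.87 with a smaller standard error (0.160). The block changed no call, and it turned the sign of CRIM1 (0.059).

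CHRDL1, NOG, INHBA and INHBB kept a negative log2 fold change and BMP4 and FST a positive one under every alternative. With 1 library left out, CHRDL1 ranged from -2.37 to -1.32 and NOG from -1.01 to -0.44. In replicates 2 and 3 the signs of BMP2 (-0.087), ID1 (0.092), ID3 (0.21), AMH (-0.10), BMPR2 (-0.032), FURIN (-0.23), GDF15 (-0.27) and HTRA1 (-0.032) turned. Leaving out single libraries turned ID1 (-0.15 to 0.12), ID3 (-0.11 to 0.14), AMH (-0.27 to 0.27), CRIM1 (-0.36 to 0.17), FSTL4 (-0.58 to 0.045), FURIN (-0.052 to 0.36), HTRA1 (-0.22 to 0.25), NBL1 (-0.13 to 0.086), SMAD3 (-0.042 to 0.28), SMAD5 (-0.039 to 0.11) and TWSG1 (-0.044 to 0.11). The cause was not tested. The log2 fold change of METTL3 ranged from 1.13 to 1.23. BMP7, with at most 8 counts in a library, was limited by depth.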
